A study of Rattus norvegicus with 19 samples.

Results

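The comparison set brain RNA of 5 daughters of rat fathers labelled ELS (early life stress, in the series text a separation from the dam) against that of 5 daughters of control fathers. These 10 libraries, of 19 in the series, are all those whose labels give paternal ELS without a high-fat diet, or paternal control. The father received the exposure, while the sequenced animals were female Wistar rats that had themselves eaten chow. They went through an elevated plus maze, a test of anxiety-related behaviour, on postnatal day 57 ± 1. The other 9 libraries came from daughters of fathers on a high-fat diet (HFD, 4) or of fathers with both exposures (ELS-HFD, 5). The samples are labelled as whole lysate of brain, and the series text names the amygdala, the part of the temporal lobe that takes part in fear and anxiety. The labels do not say which daughters share a father or a litter. The p-values of these 2 groups fitted alone thus rest on the spread among these 10 animals, taken as independent. If some share a father or a litter, those p-values can be too small.

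Separation of rat pups from the mother is a widely used model of early adversity, in which the stress hormone axis and later anxiety-related behaviour of the exposed animal are studied. Work on paternal transmission asks whether such exposure of a father is followed by differences in offspring that never met it. Transthyretin, the gene used here as a covariate, encodes a carrier of thyroxine and of the retinol-binding protein. In the brain it is known as a defining transcript of the choroid plexus, the epithelium in the ventricles that secretes cerebrospinal fluid.

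Gene IDs of Ensembl were used as deposited. No table available here pairs them with symbols (0 of 32883), and only transthyretin, ENSRNOG00000016275, is identified. Lists of amygdala, choroid plexus, stress hormone and other marker genes could therefore not be read, and the labelled tissue was not checked against its markers. The control libraries held 13184500 to 20266594 counts and the ELS libraries 12219864 to 16944395. Between 17877 and 18767 IDs had a count in the control libraries and between 17921 and 18986 in the ELS libraries. The 10 most abundant IDs took 10.9% to 12.6% of the counts in control and 9.0% to 11.9% in ELS libraries. Depth and the number of detected IDs thus overlapped between the groups.

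Transthyretin itself split the ELS group. The level, in CPM (counts scaled to a common library size after normalization), was 4733, 2406, 1143, 898 and 329 in control replicates 1 to 5. In ELS replicates 1 to 4 it was 7.04, 1.76, 0.925 and 1.13 CPM, from 102, 22, 12 and 14 counts, and in ELS replicate 5 it was 4473 CPM. All 5 control libraries were thus high, 4 ELS libraries were far below them, and the fifth lay within the control range. In bulk tissue, fewer cells of a type and less RNA per cell cannot be told apart.

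**Figure D1:**
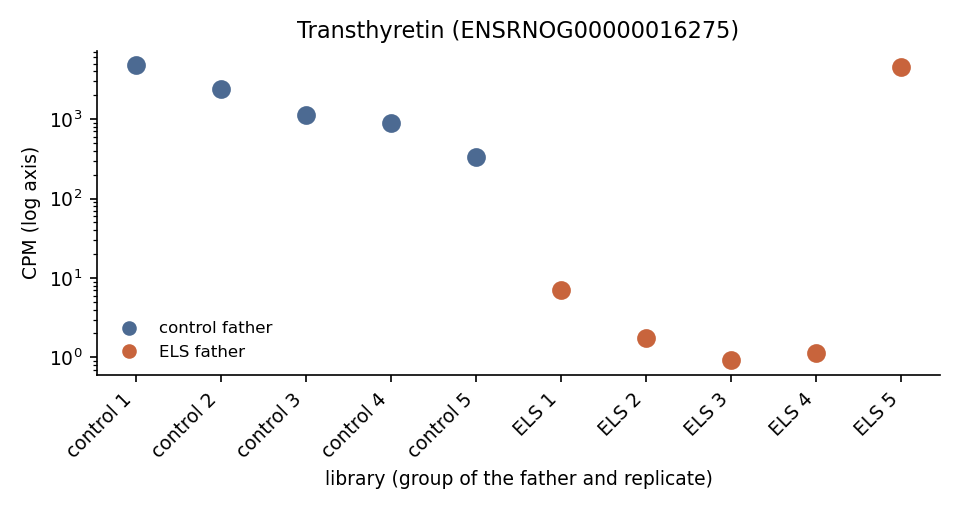
Transthyretin in CPM on a log axis, 1 point for each of the 5 control and 5 ELS libraries. ELS replicates 1 to 4 lie between 0.925 and 7.04 CPM, and ELS replicate 5, at 4473 CPM, lies within the control range of 329 to 4733 CPM.

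The direction of the difference in transthyretin held on each scale used, but not its test. Mean log2 CPM was 3.26 ± 5.07 (SD, n = 5) in ELS and 10.35 ± 1.46 (SD, n = 5) in control libraries. This difference of -7.09 had a two-sided exact permutation p of 0.0397, where 5 against 5 libraries allow no p below 0.00794. The arithmetic means were 897 ± 1999 CPM for ELS against 1902 ± 1755 CPM for control (SD, n = 5 each). On that linear scale the exact permutation p was 0.421. edgeR's quasi-likelihood test, which models means, put the log2 fold change at -1.08 ± 1.75 (SE), at a Benjamini-Hochberg adjusted p of 0.785. Without ELS replicate 5 it became -9.40 ± 0.98 (SE), at an edgeR adjusted p of 0.00993. The exact permutation p on log2 CPM passed 0.05 with all libraries, but was 0.0556 without control replicate 1, without ELS replicate 1 or without ELS replicate 2. It was 0.0635 without ELS replicate 3 or without ELS replicate 4.

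The first principal component of the 10 profiles, with 31.9% of the variance, also set ELS replicates 1 to 4 apart. It placed them at 31.25, 20.45, 20.93 and 39.22, and the control libraries between -32.96 and -2.31. ELS replicate 5, at -27.96, lay among the controls. The second component (19.2% of the variance) did not separate the groups, with controls between -24.45 and 10.77 and ELS libraries between -28.35 and 26.00. ELS replicates 2 and 3 lay low on it, and ELS replicates 1, 4 and 5 high.

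**Figure D2:**
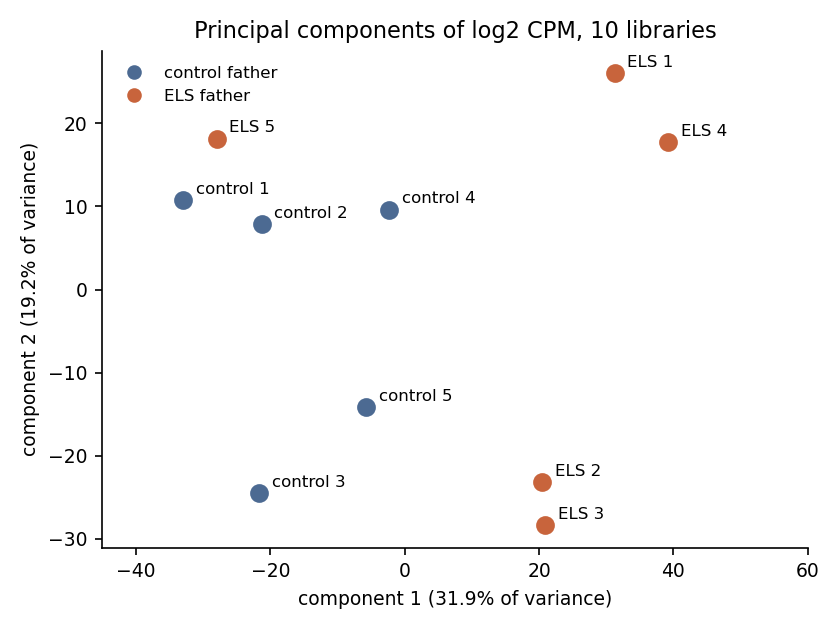
First and second principal component of log2 CPM over 14732 IDs, 1 labelled point per library, coloured by the father's group. On component 1, ELS replicates 1 to 4 lie above 20 and ELS replicate 5 lies at -27.96 among the 5 control libraries.

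Over all IDs, the 2 groups fitted alone gave many small differences and no call. Of 14732 IDs tested, edgeR called 0 (0%) at an adjusted p under 0.05, and the smallest adjusted p was 0.104. At an unadjusted p under 0.05 there were 2327 IDs, 15.8% of those tested: 1381 (9.37%) higher and 946 (6.42%) lower in ELS. limma-voom likewise called 0, with 2340 IDs at that unadjusted level. With all 4 groups in 1 edgeR fit there were 668 at that level, 338 higher and 330 lower. DESeq2 called 382 of the 11588 IDs to which it gave an adjusted p. Of these, 273 were higher and 109 lower in ELS, and all 382 were among the 2327. Whether an ID counts as changed at 5% thus depended on the tool, and the edgeR count is the one reported.

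The spread of these differences was narrow. The quartiles of the 14732 log2 fold changes were -0.13 and 0.16, around a median of 0.00, and the median SE was 0.13. Among the 1381 IDs higher in ELS at an unadjusted p under 0.05 the median log2 fold change was 0.38, and among the 946 lower ones it was -0.25. More than a 1.5-fold difference was found in 251 of the higher and 113 of the lower IDs. More than a 2-fold difference was found in 50 and 34. No tested ID without a single count in one group had 5 or more counts in every library of the other (0 in each direction).

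For a subset of IDs the libraries of the groups did not overlap at all. The lowest ELS library exceeded the highest control library in 308 IDs (2.09% of those tested), and the highest ELS library was below the lowest control library in 205 (1.39%). These counts include ELS replicate 5, the library at the control level of transthyretin. Of the 382 IDs called by DESeq2, 233 showed such separation. The 382 were called on the same contrast in the same libraries, so their separation was largely fixed by the choice and is a description.

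Higher and lower IDs differed in abundance. IDs were ranked by abundance and divided into 3 classes of equal size. In the least abundant class (median 3.47 CPM), 311 were higher and 147 lower in ELS at an unadjusted p under 0.05. In the middle class (median 21.3 CPM) 521 were higher and 272 lower. Among the most abundant class (median 86.7 CPM) the directions were nearly balanced, at 549 higher and 527 lower. In the fit with transthyretin as covariate that class held 277 higher and 400 lower IDs, the lowest class 239 and 89, and the middle class 357 and 235. The median log2 fold change over all IDs moved the same way, from 0.03 in the lowest to 0.01 in the middle and -0.02 in the highest class. Shifts of this size lie within the median SE of a single ID. That SE does not measure the spread of a median over a whole class, and no test was made of the trend.

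The IDs with the smallest p were separated in every library. The 12 higher IDs of smallest p had log2 fold changes from 0.42 to 0.88 at mean levels of 10.5 to 207 CPM, with edgeR adjusted p from 0.104 to 0.140. The 12 lower ones had log2 fold changes from -0.79 to -0.30 at 12.9 to 1070 CPM, with adjusted p from 0.104 to 0.155. All 24 had groups that did not overlap. They were chosen by p, so their separation is a description. The leading pair in each direction is given by library.

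ENSRNOG00000020478 was at 24.8, 26.0, 28.3, 29.9 and 23.3 CPM in control replicates 1 to 5. In ELS replicates 1 to 5 it was at 39.3, 60.2, 43.3, 42.5 and 41.5 CPM. All ELS libraries exceeded all control libraries, and ELS replicate 2 stood above the other 4. The means were 45.4 ± 8.42 and 26.4 ± 2.65 CPM (SD, n = 5 each). The log2 fold change by edgeR was 0.78 ± 0.12 (SE), adjusted p 0.104. DESeq2 gave this ID an adjusted p of 1.01e-05.

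ENSRNOG00000007528 was at 6.54, 9.34, 6.98, 7.98 and 6.03 CPM in the control libraries. The ELS libraries were at 11.05, 15.2, 13.0, 15.3 and 13.3 CPM. The lowest ELS library, replicate 1, lay just above the highest control, replicate 2. With means of 13.6 ± 1.75 and 7.37 ± 1.31 CPM (SD, n = 5 each), edgeR found a log2 fold change of 0.88 ± 0.14 (SE), adjusted p 0.104, against 5.01e-05 with DESeq2.

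ENSRNOG00000018399 was lower in ELS. It was at 334, 311, 316, 319 and 364 CPM in control and at 203, 206, 263, 237 and 240 CPM in ELS replicates 1 to 5. Every control library lay above every ELS library. Its means of 230 ± 25.3 and 329 ± 21.7 CPM (SD, n = 5 each) differed by -0.52 ± 0.08 (SE) on the log2 scale of edgeR, adjusted p 0.104, and 1.01e-05 with DESeq2.

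ENSRNOG00000024923 was an abundant ID with a small and even difference. It was at 1316, 1211, 1175, 1175 and 1224 CPM in control and at 858, 939, 961, 870 and 971 CPM in ELS libraries. Means were 920 ± 52.3 and 1220 ± 57.8 CPM (SD, n = 5 each). By edgeR the log2 fold change came to -0.41 ± 0.06 (SE), adjusted p 0.104, and DESeq2 gave an adjusted p of 8.26e-08. In each of these 4 IDs ELS replicate 5 lay with the other ELS libraries, while its transthyretin lay with the controls. The 4 were chosen by p with that library in the ELS group, so its place was largely fixed by the choice.

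**Figure D3:**
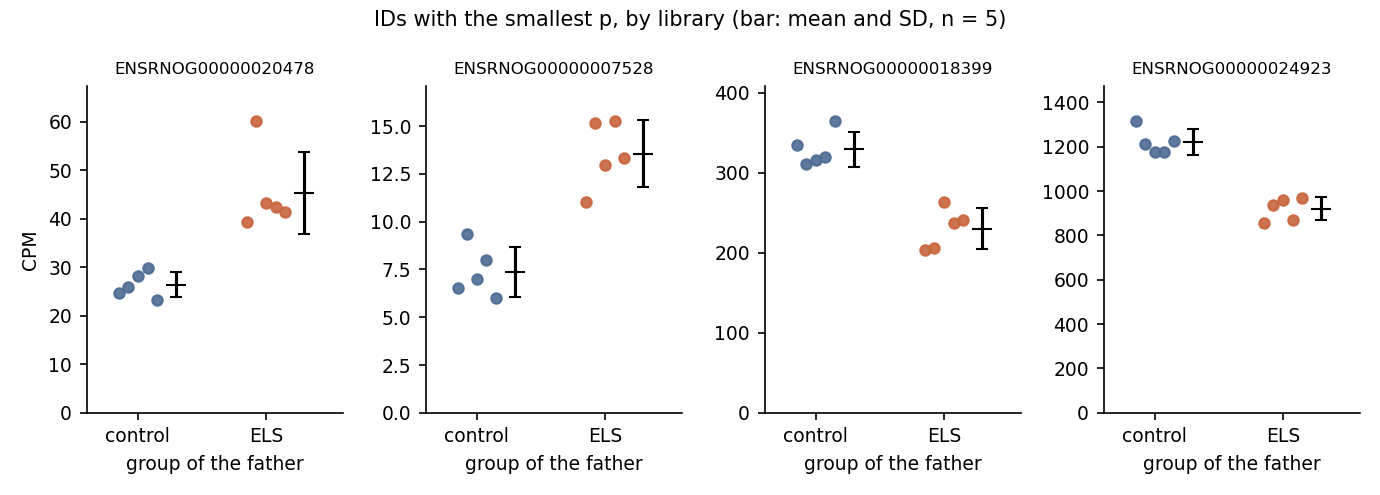
CPM of the 2 higher and the 2 lower IDs with the smallest p, 1 point per library, with the mean and SD of each group (n = 5) as a bar to the right of the points. The groups do not overlap in any of the 4 IDs, for example at 23.3 to 29.9 against 39.3 to 60.2 CPM for ENSRNOG00000020478.

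Transthyretin was then added to the model as a covariate, as log2 CPM. Of the ELS libraries only replicate 5 lay within the control range of transthyretin. The covariate contrast thus extrapolated a common fitted slope across the gap between the other ELS libraries and the controls. It did not compare the groups at a like level of transthyretin. edgeR called 0 of 14731 IDs (0%) for ELS against control, with 1597 (10.8%) at an unadjusted p under 0.05, of which 873 (5.93%) were higher and 724 (4.91%) lower. limma-voom called 0, with 1788 at that unadjusted level. DESeq2 called 68 (27 higher and 41 lower) of the 12446 IDs to which it gave an adjusted p. The group explained 53.0% of the variance of log2 transthyretin, and the median SE was 0.18, against 0.13 without the covariate. Of the 1597 IDs, 898 were also among those at an unadjusted p under 0.05 without the covariate, all 898 with the same sign, and 699 were not. Conversely, 1429 IDs passed that level only without it.

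The 4 IDs given by library kept their direction. With the covariate the log2 fold change was 0.67 ± 0.17 (SE) for ENSRNOG00000020478 and 0.85 ± 0.21 (SE) for ENSRNOG00000007528. It was -0.52 ± 0.12 (SE) for ENSRNOG00000018399 and -0.35 ± 0.09 (SE) for ENSRNOG00000024923. Each of the 4 had an edgeR adjusted p of 0.383 in that fit. DESeq2 with the covariate called the lower pair (adjusted p 0.0264 for each) and not ENSRNOG00000020478 (0.0678) or ENSRNOG00000007528 (0.0506). Without ELS replicate 5, ENSRNOG00000018399 was at -1.13 with the covariate (edgeR adjusted p 0.287), and with all 4 groups in 1 fit ENSRNOG00000007528 was at 0.51 (edgeR adjusted p 1.00). All 24 of the IDs of smallest p still had an unadjusted p under 0.05, at most 0.00832 among the 12 higher and 0.0302 among the 12 lower. None of the 24 (0 in each direction) had a called slope on transthyretin. Of all IDs tested, 1.24% had a called rising and 0.0475% a called falling slope, so 0 of 24 is near that share. The 24, which include the 4, were chosen by p in the same libraries, so the kept directions and these counts are descriptions.

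One library weighed most in the covariate fit. ELS replicate 5 had a leverage of 0.905 in that model, where 1 would mean that the fit passes through the library whatever its value, and the other 9 libraries had 0.2003 to 0.291. The ID with the smallest p in the covariate fit, ENSRNOG00000033057, was named after its values were seen. It was at 56.7, 61.3, 61.2, 54.5 and 68.9 CPM in control libraries, at 47.0, 55.4, 58.1 and 51.2 CPM in ELS replicates 1 to 4 and at 29.8 CPM in ELS replicate 5. Its low value in replicate 5 stood apart, ELS replicates 1 and 4 also lay below every control, and ELS replicates 2 and 3 lay within the control range. In edgeR it differed by -0.88 ± 0.11 (SE) on the log2 scale with the covariate (adjusted p 0.0799) and -0.33 ± 0.15 (SE) without it (adjusted p 0.316). DESeq2 gave it an adjusted p of 6.80e-09 with the covariate and 0.224 without it. Its own slope on transthyretin was called in edgeR (-0.073 per log2 unit, adjusted p 0.00642). Without ELS replicate 5 the difference with the covariate was -0.83 (edgeR adjusted p 0.346). No other ID had an edgeR adjusted p under 0.1 in the covariate fit with all 10 libraries.

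The covariate also defined a set of IDs that moved with transthyretin among libraries of the same group. At an adjusted p under 0.05 for the slope, 183 IDs (1.24% of those tested) rose with it and 7 (0.0475%) fell. The 183 took 0.280% to 0.750% of the counts in control libraries, 0.214% to 0.245% in ELS replicates 1 to 4 and 0.818% in ELS replicate 5. The last was thus the highest of all 10 libraries. Without ELS replicate 5 the slope was called in 21 IDs, all rising, and all 183 still had a slope above 0, against 51.9% of all IDs tested. In the 5 control libraries alone 67 were called, all rising, and each of the 167 of the 183 that were tested there had a slope above 0, against 49.0% of all IDs tested there. Both sets of libraries took part in choosing the 183, so these signs were largely fixed by the choice and are a description.

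The level of these 183 IDs was not linear in log2 transthyretin. Their mean log2 CPM was 4.03, 3.46, 2.73, 2.65 and 2.22 in control replicates 1 to 5, and 1.67, 1.36, 1.25, 1.23 and 4.17 in ELS replicates 1 to 5. Per log2 unit of transthyretin the mean differed by 0.48 among the control libraries and by 0.16 among ELS replicates 1 to 4, while the model fitted 1 common slope of 0.27 to that mean. In the fit without covariate 173 of the 183 were lower in ELS, with a median log2 fold change of -0.48. With the covariate 181 were higher, with a median of 0.73. The sign of the ELS difference for these IDs thus turned with the model. They were chosen in the same fit, so both counts are descriptions.

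**Figure D4:**
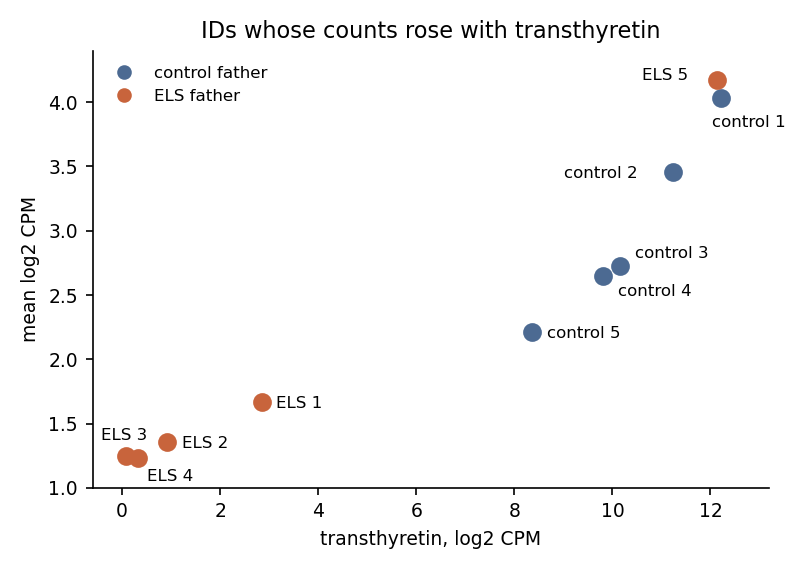
Mean log2 CPM of the 183 IDs that rose with transthyretin, against log2 CPM of transthyretin, 1 labelled point per library. ELS replicates 1 to 4 lie at 1.23 to 1.67 on a shallow line, the controls at 2.22 to 4.03 on a steeper one, and ELS replicate 5 at 4.17 beside control replicate 1.

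**Figure D5:**
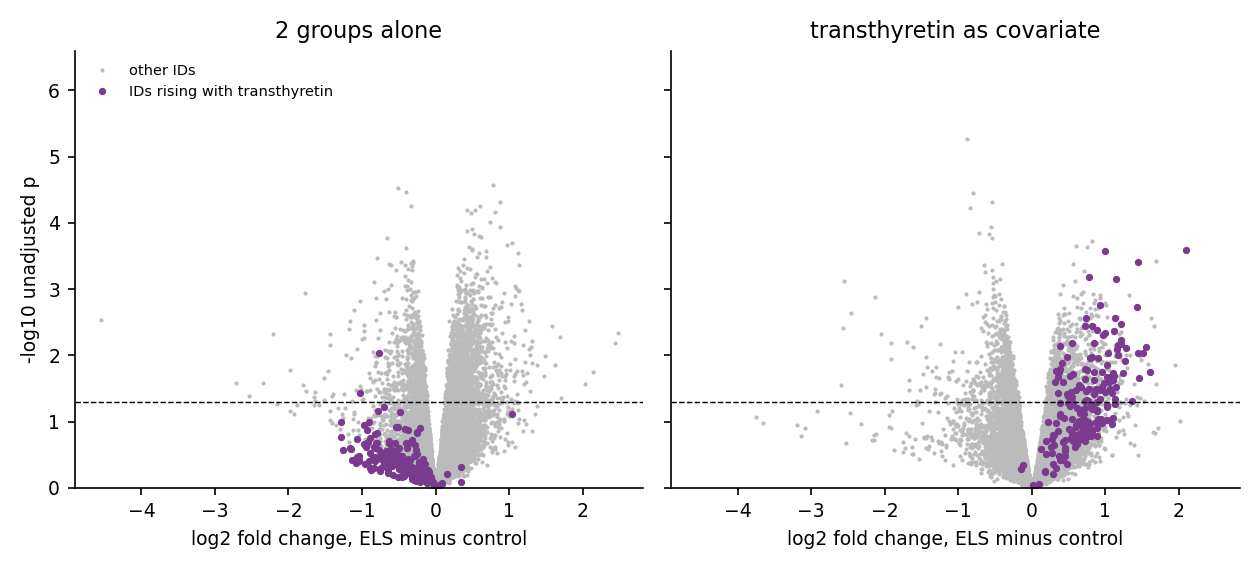
Log2 fold change of ELS minus control against -log10 of the unadjusted edgeR p for each ID, without (left) and with (right) transthyretin as covariate, with a dashed line at an unadjusted p of 0.05. The 183 IDs that rose with transthyretin (purple) lie mostly left of 0 without the covariate (173 of 183) and mostly right of it with the covariate (181 of 183).

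Without ELS replicate 5 the groups also differed fully in transthyretin, and edgeR called 37 IDs, 11 higher and 26 lower in ELS. The 26 lower calls included transthyretin and 21 of the 183 IDs that rose with it, and had a median log2 fold change of -5.35. The 11 higher calls included 0 of the 183 and had a median log2 fold change of 0.65. The 183 were 1.24% of the IDs tested with the covariate, so 0 of 11 is near that share. Of the 183, 182 were lower in ELS without ELS replicate 5. They were chosen for rising with transthyretin in a fit that held these libraries, so their direction here was largely fixed by the choice. Of the 37, 15 were also called by DESeq2 in all 10 libraries. ENSRNOG00000020478 (0.80), ENSRNOG00000018399 (-0.54) and ENSRNOG00000024923 (-0.43 on the log2 scale) were among the calls, with adjusted p of 0.0320, 0.0370 and 0.0320 by edgeR. None of the 183 (0) was among the calls of DESeq2 without the covariate over all 10 libraries, which were 382 of 11588 IDs. With the covariate, 4 of the 183 were among its calls, which were 68 of 12446 IDs. The 183 were chosen for a slope within the groups of these libraries, so both counts are descriptions.

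Daughters of HFD fathers gave the same exposure a second setting, with libraries that took no part in choosing the 4 IDs given by library. Above, these libraries entered only where all 4 groups shared 1 fit. ELS-HFD against HFD, fitted alone, gave log2 fold changes of -0.49 ± 0.26 (SE) for ENSRNOG00000020478 and -0.57 ± 0.61 (SE) for ENSRNOG00000007528. It gave 0.13 ± 0.16 (SE) for ENSRNOG00000018399 and -0.10 ± 0.24 (SE) for ENSRNOG00000024923. Transthyretin gave 10.38 ± 2.56 (SE; edgeR unadjusted p 0.00205, adjusted p 1.00), opposite in sign to ELS against control. On a scale set over all 19 libraries it ran from 0.684 to 2.59 CPM in the 4 HFD libraries and from 0.766 to 10590 CPM in the 5 ELS-HFD libraries. All 4 HFD libraries were therefore low in transthyretin without the ELS label. For the 4 IDs, the first 3 signs are opposite to those of ELS against control. The edgeR adjusted p was 1.00 for each of them too, and the unadjusted p was 0.0915, 0.376, 0.441 and 0.679 in this order. ENSRNOG00000024923 turned to 0.10 ± 0.17 (SE) when the 3 libraries that stand apart in those groups (HFD replicate 1, ELS-HFD replicates 2 and 3) were left out, and the other 3 kept their signs. The difference between the 2 settings, tested in 1 edgeR fit to all 19 libraries, did not pass for transthyretin (11.48 ± 3.51 (SE), adjusted p 0.969) or for any of the 4 IDs. It was -1.27 ± 0.29 (SE) for ENSRNOG00000020478 and -1.45 ± 0.63 (SE) for ENSRNOG00000007528. For ENSRNOG00000018399 it was 0.64 ± 0.17 (SE), and for ENSRNOG00000024923 0.31 ± 0.24 (SE). The first 3 had an edgeR adjusted p of 0.969. The unadjusted edgeR p was 0.00401 for transthyretin, and 0.000361, 0.0334, 0.00117 and 0.216 for the 4 IDs in this order. This difference holds the ELS against control contrast that chose the 4, so the choice pushed it to the opposite sign.

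On a scale set over all 19 libraries, the high level of ENSRNOG00000020478 was not found in ELS libraries alone. It ran from 38.1 to 59.0 CPM in ELS and from 22.7 to 29.2 in control libraries, but from 21.2 to 52.6 in HFD and from 20.9 to 37.9 in ELS-HFD libraries. ENSRNOG00000018399 ran from 197 to 258 CPM in ELS and from 249 to 366 in HFD libraries, from 304 to 355 in control and from 268 to 385 in ELS-HFD libraries. ELS was thus the lowest group in it, with an overlap with HFD. In the other 2 of the 4 IDs, ELS overlapped with both HFD and ELS-HFD. ENSRNOG00000007528 ran from 10.7 to 14.9 CPM in ELS, 1.56 to 13.6 in HFD and 1.72 to 12.1 in ELS-HFD libraries. ENSRNOG00000024923 ran from 832 to 950 CPM in ELS, 872 to 2071 in HFD and 925 to 1425 in ELS-HFD libraries. The 4 were chosen by p in ELS against control, so the order of those 2 groups was largely fixed by the choice.

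Signs were also compared across IDs. Of the 2327 IDs at an unadjusted p under 0.05, 2318 were measured in both, and 935 of those (40.3%) had the same sign in ELS-HFD against HFD, where 49.2% of all 14526 IDs did. Without those 3 libraries that stand apart the shares were 27.4% and 38.2%. IDs vary together and are not independent, and no test was made of these shares. The libraries of HFD and ELS-HFD fathers also held the set that moved with transthyretin. Of the 183 IDs, 155 could be tested there, 154 had a slope above 0, and 128 had an unadjusted p under 0.05 in that direction, against 3.55% of all IDs tested. At an adjusted p under 0.05 edgeR called 2 of the 155 there.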

How the data were processed

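The authors deposited 1 table of raw counts, with a row per gene ID of Ensembl and a column per library, per the file headers. Rnor_6.0 and DESeq2 appear in the submitters' processing notes. Not given in the sources used here are the aligner, the annotation release and the treatment of strand and of reads that match several genes, so counts of overlapping or near-identical genes are uncertain. The kit enriched polyadenylated RNA from about 400 ng, per the labels' protocols. Each column name carries a number that 1 sample's description holds, and columns were assigned by it.

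The default filter of edgeR (4.0.16, R 4.3.3) on the 2 groups kept 14732 of 32883 IDs, which held at least 99.85% of each library's counts. TMM set the library scaling. Groups were compared with the quasi-likelihood F test of edgeR on the control and ELS libraries alone, repeated with log2 CPM (prior count 2) of transthyretin as a numeric term; transthyretin was left out of the counts of that fit. A call means a Benjamini-Hochberg adjusted p under 0.05, in edgeR and limma-voom over all IDs tested. DESeq2 left some IDs without an adjusted p, and gave one to 11588 IDs without and 12446 with the covariate. An SE is the log2 fold change divided by the square root of F. Alternatives used DESeq2 (1.42.0), limma-voom (limma 3.58.1), sva (3.50.0), other filters and scalings, and libraries left out. The script was tested on simulated data. Libraries of 1 group differed well beyond counting noise (chi-square per degree of freedom at least 6.48), so none were merged.

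The comparison, the covariate and the lists were chosen with earlier results of these data known. The 25 marker lists need symbols, which 0 of 47357 rows of the symbol table pair with an Ensembl ID, and were not used. The name transthyretin for ENSRNOG00000016275 came with the definition of the comparison. The rule for named IDs was then transthyretin plus the 2 higher and 2 lower IDs of smallest p. The second setting (ELS-HFD against HFD) and the slopes on transthyretin in other libraries were added after the data were seen.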

Additional observations from a re-analysis of the deposited data

Results flagged for a closer look

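Of 22 sets of 5 library values examined, 3 had 1 library well apart from the other 4. Chance alone does this in about 1 of 20 such sets. The values are not independent of each other, and some were chosen after they were seen. ELS replicate 5 stood apart from the other ELS libraries in log2 CPM of transthyretin (12.13) and in the first principal component (-27.96). ELS replicate 2 stood apart in log2 CPM of ENSRNOG00000020478 (5.91), on the side away from the controls. Without ELS replicate 2 its log2 fold change was 0.65 in place of 0.78 (edgeR adjusted p 0.181).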

How the results depend on the processing

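The call of 0 IDs for ELS against control held in edgeR with DESeq2's size factors, other filters, a robust fit, 1 surrogate variable and all 4 groups in 1 fit, and in limma-voom. DESeq2 called 382 without and 68 with the covariate. Leaving out 1 library in turn gave 0 to 37 calls without the covariate (37 without ELS replicate 5) and 0 to 1 with it. The single calls were ENSRNOG00000047565 without control replicate 5, in both fits (log2 fold change 2.55 and 2.91, adjusted p 0.0304 and 0.0419), and ENSRNOG00000033057 without control replicate 4 with the covariate (adjusted p 0.0453); both were named after their values were seen. The count at an unadjusted p under 0.05 became 668 without and 663 with the covariate when all 4 groups shared 1 fit. With 1 library left out it ran from 1667 to 2606 without the covariate and from 1023 (without control replicate 5) to 1835 with it. The cause was not tested. The difference in transthyretin was -1005 CPM on the linear scale (exact permutation p = 0.421), and ran from -9.31 to -6.30 log2 units with 1 library left out (exact permutation p from 0.00794 to 0.0635). The 4 IDs given by library kept their sign in all 19 alternatives without and all 20 with the covariate. They were chosen by p in the same libraries, so these signs were largely fixed by the choice. With the covariate ENSRNOG00000018399 moved from -0.52 to -1.13 without ELS replicate 5. In that model ENSRNOG00000007528 moved from 0.85 to 0.51 with all 4 groups in 1 fit.

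The replicate numbers are not known to pair animals: same-numbered deviations correlated at -0.26 to 0.32, and 2 of 5 control libraries were closest to the ELS library of their number. With the number as a replicate block edgeR called 0 IDs in both fits, with 2560 and 2386 at an unadjusted p under 0.05. Depth limits the low values: ELS replicates 2 to 4 held 12 to 22 counts of transthyretin.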
